A study of Mus musculus with 4 samples.

Results

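The very strong shared regions are DNase I hypersensitive regions that stood at a high tag density in every library of the series. They were found by merging the lists of hypersensitive regions of the 4 libraries, with overlapping or touching regions joined, and by keeping merged regions present in all 4 lists. A merged region was a member when its highest maximum tag density reached 40 in each library and stayed under 2000 in the untreated one. By this rule 751 of 103288 merged regions were members, which is 751 of the 20687 regions found in all 4 lists (the shared regions). The densities chose the members, so their levels and the ratios between libraries are given as a description, with no test. Nothing is concluded from the fact that they were high.

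The cells were the mouse mammary line 7438, in which GFP-GR, a tagged glucocorticoid receptor, and Cherry-ER, a tagged estrogen receptor, are both driven by a tet-regulated promoter. In all groups the cells were plated 48 h ahead in charcoal-dextran serum, and tetracycline was washed out 24 h before hormone so that both receptors were made. The untreated group then received no hormone, the Dex group 100 nM dexamethasone (a synthetic glucocorticoid), the E2 group 100 nM estradiol, and the Dex+E2 group 100 nM of each, always for 30 min. There was 1 library per group, so no value has a replicate error and no difference between groups could be tested. Marker genes of the cell type could not be checked, because no annotation in the build of the lists was used.

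DNase I cuts DNA where nucleosomes are displaced or loosened, and the number of cuts that pile up at a site is read as its accessibility. Sites that stay open whatever the stimulus commonly include promoters of broadly active genes and sites of the insulator protein CTCF, whereas many enhancers open and close with signals. GR and ER are transcription factors that a ligand activates, and both bind largely within chromatin that is already accessible. Gene annotation and sequence in mm9, the build of the lists, were not used here, so the members are named by position, and which of them are promoters, enhancers or insulators was not analysed.

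The limit of 40 was not equally strict in the 4 libraries. It was reached by 7277 of the shared regions in the untreated library, 2113 in Dex, 799 in E2 and 2410 in Dex+E2. The median shared region had a density of 30.1 untreated, 14.7 with Dex, 10.2 with E2 and 15.4 with Dex+E2, so the limit was 1.33 times the median in untreated cells and 3.92 times the median with E2. Failing in E2 alone kept out 955 regions, against 28 for Dex, 4 for untreated and 2 for Dex+E2. The E2 library thus set most of the membership. When the same multiple of the library median (3.92) was asked in every library, a setting added after the data were examined, 547 regions passed. All 547 were members, which this stricter limit implies, and they made up 72.8% of the 751. None of them belonged to the level regions described further on.

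In tags, the limit corresponded to 157 tags at the summit in untreated cells, 164 with Dex, 201 with E2 and 177 with Dex+E2. The regions nearest to it show how fine the line is. Just inside were chr4:3006469-3013753, whose lowest density was 40.2 (in Dex), and chr10:39977159-39979428 and chr12:8647375-8648281, both at 40.2 in E2. Just outside were chr11:94776779-94778425, chr15:72897529-72898915 and chr4:43051511-43054234, each with 200 tags in E2, a density just under the limit. One tag separated the last regions let in by E2 from the first left out. The exact Poisson 95% interval of a region with 200 tags in E2 runs from 34.6 to 45.9 on the density scale. All such intervals here cover counting error only.

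The members' median density was 163.7 in untreated cells (quartiles 137.2 and 200.0), 73.7 with Dex (61.1 and 93.5), 51.4 with E2 (44.7 and 64.3) and 81.7 with Dex+E2 (67.3 and 99.1). The median summit held 642, 301, 257 and 360 tags in that order. E2 was the lowest library at 679 of the 751 members, and untreated the highest at 723. The median of all shared regions was likewise lowest in E2 (10.2) and highest in untreated cells (30.1). How many shared regions had these extremes was not counted, so nothing is read from the 2 counts. The full order untreated, Dex+E2, Dex, E2 from high to low held at 450 members (59.9%), where 39.1% of shared regions had it, and the order with Dex and Dex+E2 exchanged at 218 (29.0%), where 35.5% had it. In E2 339 members (45.1%) lay between 40 and 50. The set is therefore dense near its lower edge and thins out upwards. A density of at least 50 in every library was held by 394 members, of at least 75 by 101, of at least 100 by 38 and of at least 150 by 7.

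**Figure D1:**
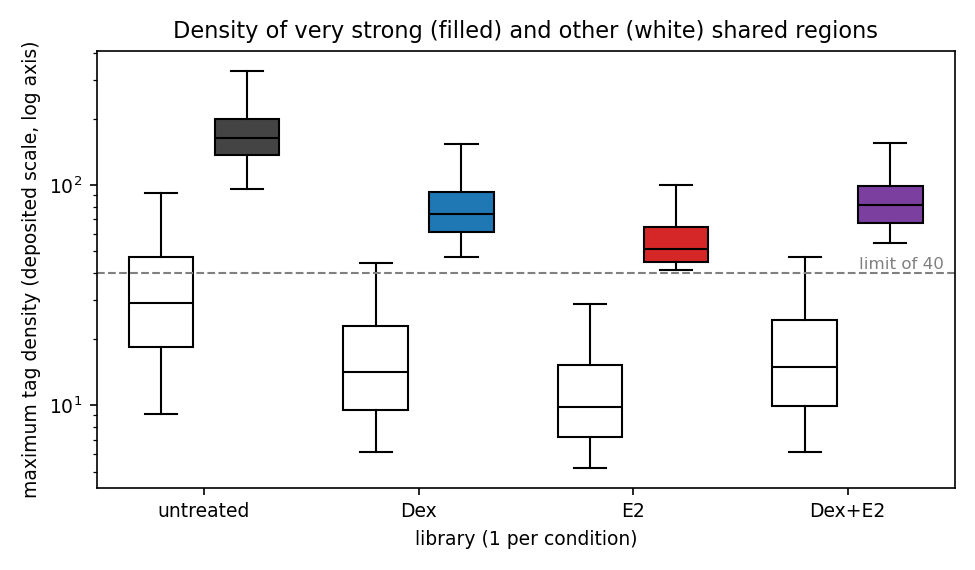
Maximum tag density (log axis, deposited scale) in the 4 libraries, for the 751 very strong regions (filled boxes) and the other shared regions (white boxes). Boxes span the quartiles with the median as a line, whiskers run from the 5th to the 95th percentile, and the dashed line is the limit of 40: the filled E2 box, with a median of 51.4, sits closest to it.

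The members held a sizeable part of the signal in each list, which a choice on high density in every library brings with it. In the untreated list 777 of the 65879 listed regions (1.18%) belonged to them, and these held 14.6% of the summed signal (average density times length). Their listed length was 1204 of 45318 kb, and their mean density was 36.8 against 6.73 over all listed bases. After Dex the members held 14.2% of the signal on 1102 of 31669 kb, with a mean density of 17.0 against 4.16. After E2 they held 16.7% on 911.6 of 19742 kb, at 13.1 against 3.62. After Dex+E2 they held 14.3% on 1011 of 29894 kb, at 18.6 against 4.41. The share of signal was thus similar in lists whose total length ran from 19742 to 45318 kb.

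The densest member by its lowest value was chr17:39979633-39985943. Its density was 1260 untreated (95% interval 1225 to 1296), 684.0 with Dex, 485.3 with E2 and 535.9 with Dex+E2. It is 6310 bp wide and was listed as 1 region in each library. Relative to the library medians it stood 41.9, 46.6, 47.6 and 34.7 times higher, so Dex+E2 gave its lowest relative value. How reads from repeated sequence were placed was not tested, here or at any other member.

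The second and the fourth densest adjoin each other on chromosome 7. The region chr7:148377700-148379150 had 338.7 untreated (320.7 to 357.4), 431.7 with Dex (411.8 to 452.4), 265.0 with E2 and 336.0 with Dex+E2. Its neighbour chr7:148376723-148377699, which ends 1 position before it begins, had 312.2, 373.9, 225.4 and 264.8. At both the Dex library was the highest, and as deposited it was above the untreated one beyond the counting intervals. In library medians, chr7:148377700-148379150 stood at 11.3 untreated, 29.4 with Dex, 26.0 with E2 and 21.8 with Dex+E2. Its neighbour stood at 10.4, 25.5, 22.1 and 17.2. On this scale each hormone library was above the untreated one at both. As deposited, Dex was the highest library at 8 of the 751 members. How many shared regions had this was not counted, so nothing is read from this count. The lists kept the pair apart in every library, and they count as 2 members here.

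Of the remaining 7 of the 10 densest, chr15:74915667-74917821, the third, had 441.5 untreated, 314.2 with Dex, 254.8 with E2 and 286.3 with Dex+E2. At chr10:95540049-95540876 the values were 785.0, 348.0, 267.6 and 215.1, and here Dex+E2 was the lowest library. That region is narrow, 827 bp, and its average density was 36.5% of the maximum in untreated cells, where the median member had 20.8%. The density of chr15:102235322-102237347 was 637.6 untreated, 324.0 with Dex, 171.8 with E2 and 252.3 with Dex+E2.

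Both chr17:26056485-26057800 and chr11:95936634-95937790 stayed closer to a constant multiple of the library medians, with ranges of 0.15 and 0.22 on the log2 scale between the highest and the lowest library. The former had 473.6 untreated, 215.7 with Dex, 145.0 with E2 and 236.4 with Dex+E2, or 15.7, 14.7, 14.2 and 15.3 library medians. The latter had 484.9, 229.7, 144.2 and 213.5, or 16.1, 15.6, 14.1 and 13.8 library medians. The other members among the 10, chr11:3052088-3069264 and chr11:3090902-3097316, belong to a run of members on chromosome 11 that is described further on.

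As deposited, members were lower in each hormone library than in the untreated one, and so were shared regions in general. For Dex over untreated the members' median log2 ratio was -1.17 (quartiles -1.30 and -1.01), and that of all shared regions was -1.04. Densities at least 2-fold lower were found at 570 members (75.9%), where 54.1% of all shared regions were called by the same limit. The E2 ratio to untreated had a median of -1.67 among members and -1.56 over all shared regions, with 701 members (93.3%) at least 2-fold lower against 83.9%. Dex+E2 over untreated had a median of -1.01 against -0.95, with 390 members (51.9%) at least 2-fold lower against 45.8%. Since the limit in every library bounds how far a member can fall, nothing is read from these shares. No member was at least 2-fold higher than untreated in any hormone library on the deposited scale, where the percentage of shared regions that were so was 0.551% with Dex, 0.160% with E2 and 1.10% with Dex+E2.

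Division by each library's median over the shared regions took most of this shift away. Among members the relative log2 ratios of the Dex, E2 and Dex+E2 libraries to the untreated one had medians of -0.13, -0.11 and -0.04. On this scale 21 members (2.80%) were at least 2-fold higher with Dex, 34 (4.53%) with E2 and 18 (2.40%) with Dex+E2, against 6.69%, 7.89% and 7.19% of all shared regions. None was at least 2-fold lower with Dex (0.595% of shared regions) or with E2 (0.445%). The limit in every library bounds these shares as well, so nothing is read from them. The same holds for the other 2-fold shares of members given below. The ratio of Dex+E2 to Dex was 0.12 as deposited and 0.05 relative to the medians, and that of Dex+E2 to E2 was 0.63 and 0.03. Whether the shift as deposited comes from the libraries or from the hormones cannot be told apart with 1 library each.

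Ratios were also read in libraries in which a choice had not asked for a density of 40. All regions here still had to be listed in all 4 libraries, so the libraries read were not free of selection. Listing can bound the ratios of either group, so nothing is read from the differences below. Regions that reached 40 in E2 and Dex+E2, whatever their density in the other libraries, numbered 787. Their median log2 ratio of Dex to untreated was -1.17, against -1.04 for the remaining shared regions. The 2002 regions chosen on untreated and Dex had a median Dex+E2 to E2 ratio of 0.71, against 0.54 for the rest. Those chosen on Dex and Dex+E2 numbered 1775, with an E2 to untreated ratio of -1.71 against -1.54. The 782 chosen on untreated and E2 had a Dex+E2 to Dex ratio of 0.13 against 0.05. In these readings the upper limit of 2000 in untreated cells was kept. These selections were added after the data were examined, and each holds all 751 members. The sets of 787 and 782 regions are therefore almost the members themselves, and their medians give no independent support to those of the members.

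The members' ratios also scattered less than those of shared regions in general. The limit in every library bounds the members' ratios, so nothing is read from this difference. The robust spread (the median absolute deviation scaled to match an SD) of the log2 ratio of Dex to untreated was 0.22 among members and 0.41 over all shared regions. For E2 over untreated it was 0.24 against 0.44, and for Dex+E2 over untreated 0.26 against 0.46. The counting error expected from the tags was itself smaller, with a median of 0.10 among members and 0.23 over all shared regions for Dex over untreated. In the same comparison the members' spread was therefore more than their counting error alone. Relative to the library medians, the log2 excess of Dex+E2 over the product of both single-hormone changes had a median of 0.16 (quartiles -0.04 and 0.34) among members and -0.02 (-0.40 and 0.29) over all shared regions. As deposited the medians were 1.79 and 1.61, so the size of this excess depends on the scaling.

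Taking the largest minus the smallest relative log2 density over the 4 libraries as a region's range, the median member had a range of 0.36 (quartiles 0.26 and 0.54), and the median shared region 0.59 (0.40 and 0.86). The limit bounds the members' range as well, so nothing is read from this difference. The most even member was chr12:117518323-117520711, with a range of 0.03. Its densities of 160.9 untreated, 76.9 with Dex, 53.6 with E2 and 81.9 with Dex+E2 are 5.35, 5.23, 5.25 and 5.31 library medians. At chr17:34740167-34742035 the range was 0.04 and the densities were 362.9, 175.1, 125.4 and 185.1. At chr11:97563507-97565110 (range 0.05) they were 177.0, 89.1, 60.8 and 90.3. A range of 0.06 was found at 2 more regions, chr12:32634715-32635969, with 331.3, 159.7, 109.4 and 163.1, and chr13:5836138-5837265, with 127.8, 63.7, 45.2 and 65.8. All 5 therefore stayed at nearly the same multiple of the library median, while their deposited E2 value was less than 0.5 of the untreated one.

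A range of at least 2-fold was seen at 57 members (7.59%), against 17.6% of all shared regions. Since the limit bounds the members' share, nothing is read from it. Of these 57, 27 were level regions, meaning that no hormone library was under 0.8 of the untreated density as deposited. Over all shared regions 4.23% were level, and among members 3.60%. The definition has no upper bound, so a region that was higher in a hormone library also counts as level. At 18 of the 27 level members at least 1 hormone library exceeded the untreated one as deposited, and the highest hormone density of the 27 ran from 0.868 to 1.43 times the untreated one. Their median density was 57.4 untreated, 60.2 with Dex, 65.2 with E2 and 60.1 with Dex+E2, where the other 724 members had 165.3, 74.1, 51.2 and 82.1. The highest untreated density of a level member was 101.5. Among the 41 members under 100 in untreated cells, 26 were level, and among the 710 others 1 was. A region of low untreated density can reach 40 with E2 only if its density hardly falls, so the rule itself ties these together.

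**Figure D2:**
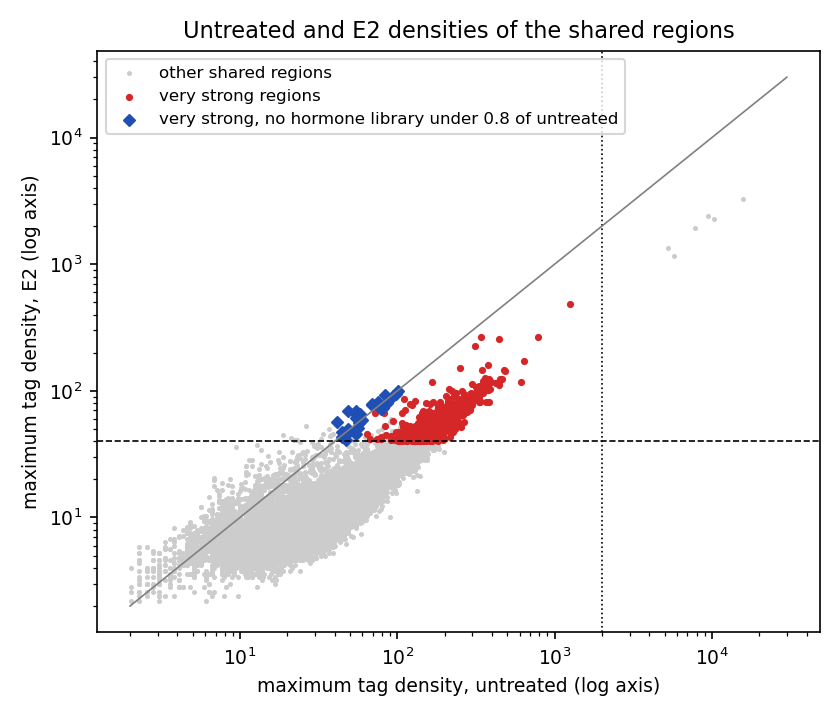
Maximum tag density in the untreated library (x, log axis) and with E2 (y, log axis) for the shared regions. Grey points are other shared regions, red points very strong ones and blue diamonds the 27 level members. The dashed line is the limit of 40, the dotted line the limit of 2000 and the solid line equality: the diamonds lie near or above equality at untreated densities up to 101.5, and the red points lie below it.

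The 5 members with the largest range were all level. At chr8:19938086-19939276 (range 2.08) the density was 48.7 untreated (42.1 to 56.1), 51.7 with Dex, 69.6 with E2 (62.5 to 77.3) and 66.7 with Dex+E2. At chr17:13743322-13746301 (range 2.03) it was 41.3, 54.9, 57.2 and 46.1. The region chr6:29697450-29699305 (range 1.92) had 54.6, 63.2, 69.8 and 55.8. The other two were chr8:19939327-19942710 (range 1.76), with 55.9, 56.1, 64.2 and 60.1, and chr11:3036456-3038031 (range 1.74), with 69.1, 74.0, 78.4 and 73.1. In all 5 regions E2 was the highest library even as deposited.

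**Figure D3:**
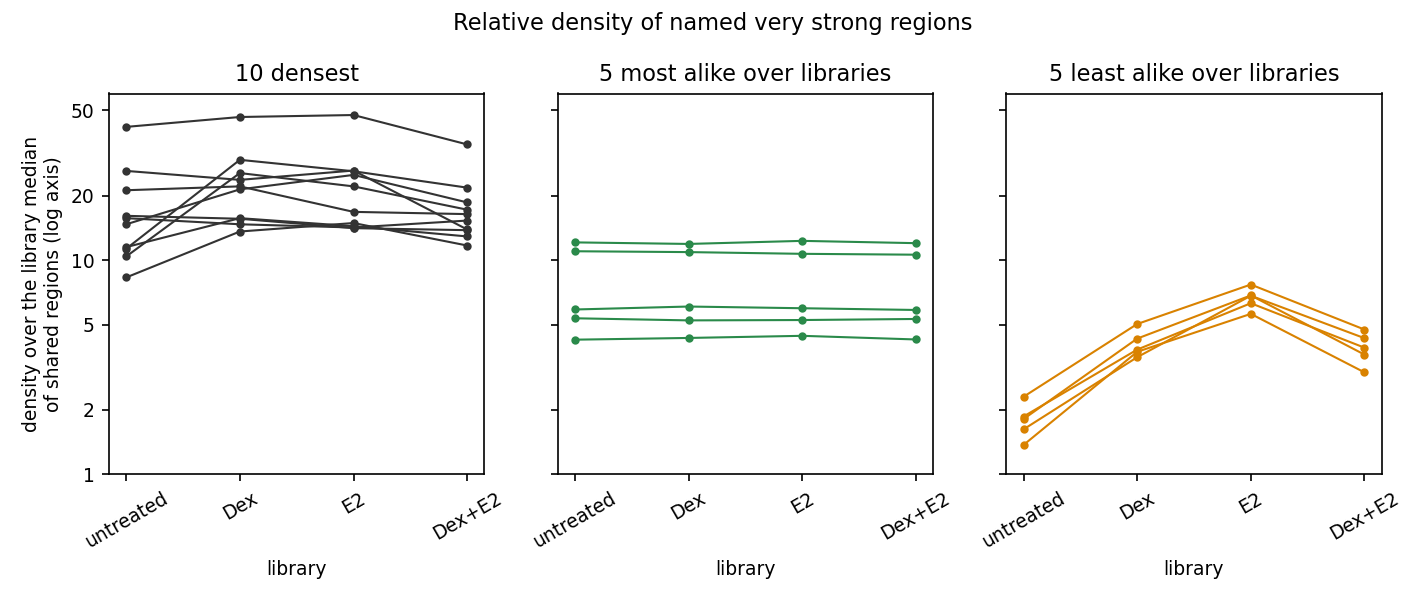
Density divided by the library median of the shared regions (log axis) in the 4 libraries, 1 line per region, for the 10 densest members, the 5 with the smallest range (0.03 to 0.06) and the 5 with the largest range (1.74 to 2.08). The middle panel is flat, and in the right panel every line rises from untreated to E2 and is lower again with Dex+E2.

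Leaving out the level regions, 30 members had a 2-fold range. At some of these, both libraries with Dex stood above both without it relative to the medians. These were picked after their values were seen. The widest range was at chr5:127017667-127019270, with 126.8 untreated (115.9 to 138.4), 201.8 with Dex (188.2 to 216.0), 51.2 with E2 (45.1 to 57.9) and 167.0 with Dex+E2 (155.1 to 179.5). Both libraries with Dex lie above both without it, and no counting interval of the former overlaps one of the latter. It was the sole member at least 2-fold higher, relative to the medians, in Dex over untreated and also in Dex+E2 over E2, comparisons with no library in common. Over all shared regions 1.38% met this, and 0.133% of members. Relative to the medians, the same direction at smaller size was seen at chr16:49951105-49952893, with 148.7 untreated, 148.4 with Dex, 49.6 with E2 and 129.1 with Dex+E2, at chr15:97744212-97745458, with 180.8, 130.3, 40.2 and 106.9, and at chr2:131831800-131833178, with 162.0, 128.1, 40.4 and 106.9. At the last 3 sites, the Dex library did not exceed the untreated one as deposited. The libraries without Dex also differed at chr15:97744212-97745458, with 6.01 library medians untreated and 3.94 with E2. At chr2:131831800-131833178 these values were 5.38 and 3.96.

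Other members had their lowest value with Dex alone, both as deposited and relative to the medians. The density of chr11:95020733-95022556 was 112.5 untreated, 42.1 with Dex, 71.2 with E2 and 85.8 with Dex+E2. The values at chr1:36382392-36383531 were 119.9, 47.0, 79.2 and 101.0, and those at chr13:53103869-53104979 were 106.6, 44.8, 66.4 and 113.4. The last 2 and chr11:112869505-112870503 (78.8, 44.1, 43.6 and 94.6) were the 3 members at least 2-fold higher in Dex+E2 than in Dex relative to the medians (0.399% of members and 1.84% of shared regions). No member was at least 2-fold higher with E2 in both comparisons that isolate it (against untreated, and with Dex present in both), where 0.996% of shared regions were. None was at least 2-fold lower in both comparisons for Dex (0.0435% of shared regions) or for E2 (0.0290%).

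Relative to the medians, 9 members (1.20%) were at least 2-fold lower in Dex+E2 than in untreated cells, against 1.58% of shared regions. On this scale all 9 were also lower than untreated with Dex alone and with E2 alone, so lower values were not particular to co-treatment. They include chr4:8545167-8546349, with 183.1 untreated, 51.9 with Dex, 48.6 with E2 and 40.8 with Dex+E2. At chr1:190801909-190802662 the densities were 329.8, 120.0, 81.8 and 74.6, and at chr10:84488666-84489430 they were 616.2, 271.3, 118.0 and 145.2. The last 2 are narrow, 753 and 764 bp, where the median member spans 1436 bp.

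The upper limit of 2000 kept out 6 regions that reached 40 everywhere, with untreated densities from 5225 to 15878. No shared region that reached 40 in every library lay between the densest member (1260) and the lowest of these. Their ratio of Dex+E2 to Dex ran from 0.455 to 0.607, while the median member had 1.09. A ratio of 0.607 or less was found at 2 members and at 571 of the 20687 shared regions. The 6 had a median width of 781.5 bp, and those 2 members one of 750.0 bp.

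Width was not part of the rule. The merged members had a median width of 1436 bp (quartiles 1159 and 1862), and the other shared regions 995.0 bp (791.0 and 1330). Within single lists the densest region of a member spanned a median of 1374 bp in untreated cells, 1235 with Dex, 959.0 with E2 and 1088 with Dex+E2, against 938.0, 757.0, 620.0 and 718.0 bp for the other shared regions. Density and width come from the same tags, so this difference is no separate finding. The E2 regions had a median of 76.2% of the untreated width at members and 67.1% at the other shared regions.

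The borders of the members differed between the 4 lists. At 610 members (81.2%) each list held 1 region, against 85.5% of the other shared regions, and 141 members were split in at least 1 list. Among these 610, the start differed by a median of 145.0 bp between the lists and the end by 144.0 bp, against 163.0 and 160.0 bp in the other shared regions with 1 region in every list. The stretch common to all 4 lists had a median of 927.5 bp, or 74.7% of the merged width, against 573.0 bp and 61.6%. All 610 members had such a common core, and 86 of the 17045 other shared regions with 1 region in every list had none.

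The profile of a member was on the whole peaked. The average density was a median of 20.8% of the maximum in untreated cells (quartiles 18.7 and 24.1), 20.4% with Dex, 22.3% with E2 and 21.7% with Dex+E2. The other shared regions had 22.8%, 22.8%, 26.4% and 24.8%. Width enters this measure, and at equal width the order turned. Among regions listed at 1000 to 1500 bp in untreated cells, the 352 members had 21.8% and the 5883 other shared regions 20.6%, and between 1500 and 2000 bp the 174 members had 19.7% and the 1875 others 18.5%.

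The 5 widest members were chr11:3052088-3069264 (17176 bp), chr11:3040580-3049034 (8454 bp), chr4:3006469-3013753 (7284 bp), chr11:3090902-3097316 (6414 bp) and chr17:39979633-39985943 (6310 bp). The widest had densities of 249.7 untreated, 199.1 with Dex, 151.6 with E2 and 180.1 with Dex+E2, and was listed in 2 regions in untreated cells, 4 with Dex, 2 with E2 and 4 with Dex+E2. The second had 168.8, 98.9, 82.0 and 95.7. At chr4:3006469-3013753, a level member at the very edge of the limit, the densities were 48.7, 40.2, 49.6 and 50.4. For comparison, the upper quartile of the members' width was 1862 bp.

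Of these 5, 3 lie in 1 run of 16 members at chr11:3023558-3100127, the longest of 2 runs of at least 3 members less than 10 kb apart. All 16 shared regions of these 76.6 kb are members, and they cover 85.7% of it. Of the 16, 12 are level. The run's median density was 82.8 untreated, 88.2 with Dex, 81.2 with E2 and 85.1 with Dex+E2, nearly the same in each library. The exceptions are its denser regions. These are chr11:3090902-3097316 (347.4, 230.4, 146.6 and 199.6), chr11:3023558-3024383 (293.8, 150.4, 83.0 and 141.8) and the 2 widest members of all, whose untreated value was also the highest. A region in the middle of the run, chr11:3075011-3078506, had 101.5, 97.5, 100.6 and 98.5.

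The second run, chr8:19923857-19945275, holds 5 members in 21.4 kb among 13 shared regions, and 4 of the 5 are level. Median densities there were 55.9 untreated, 55.6 with Dex, 64.2 with E2 and 60.1 with Dex+E2. In their medians both runs lack the drop from untreated to hormone libraries that most members had. What sets these stretches apart, including how reads from repeated sequence were placed, was not tested. Without the level members the medians of the remaining 724 hardly moved, at -1.17 for Dex over untreated and -1.69 for E2 over untreated.

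**Figure D4:**
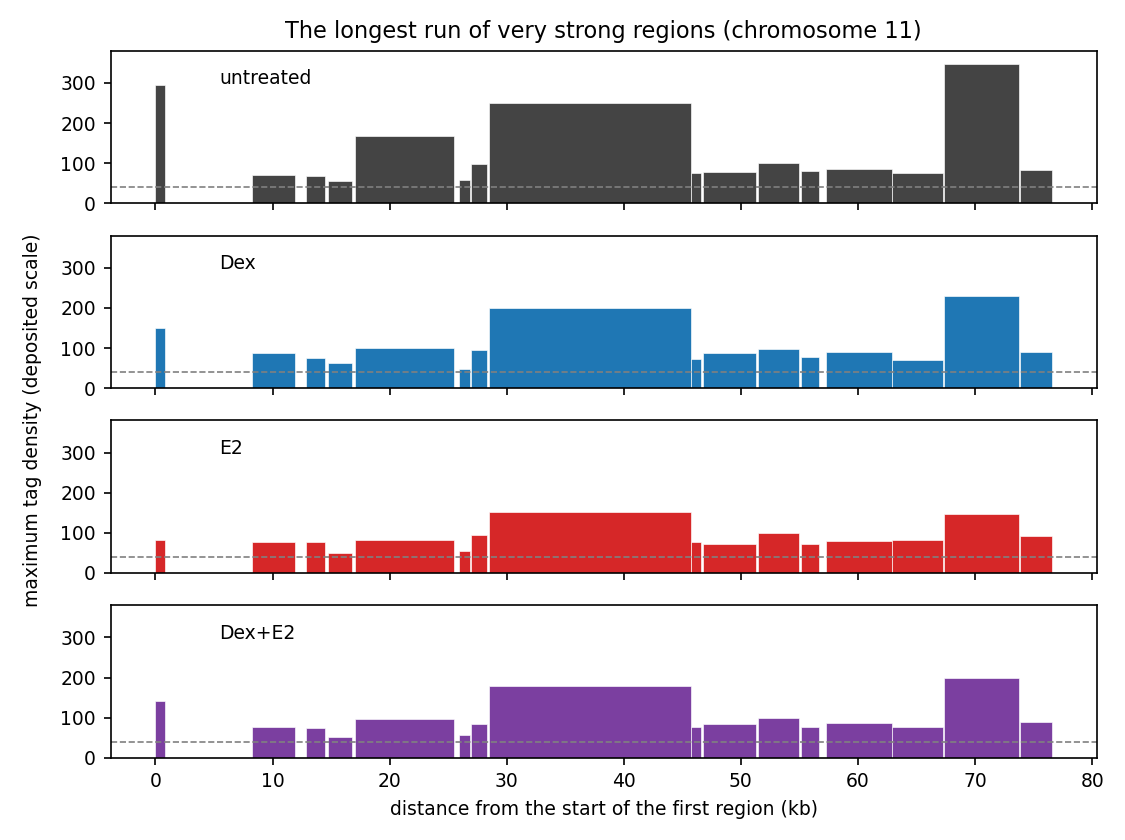
Maximum tag density (y, deposited scale, from 0) of the 16 members of the run on chromosome 11 in the 4 libraries, with 1 bar per merged region drawn to its width along the distance in kb from the start of the first. The dashed line is the limit of 40: most bars keep their height from library to library, and the tallest untreated bar, at 347.4, is down to 146.6 with E2.

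Most members were scattered, with a median of 978.1 kb to the next member on the same chromosome. No other member lay within 10 kb of 698 members, and 32 lay in pairs. Another shared region lay within 5 kb of 243 of all 751 members (32.4%), those in the runs included, and of 27.3% of the other shared regions. Of 372 windows of 5 Mb with at least 20 shared regions, 112 held no member. The median window had 2.70% members, and 17 windows had 10% or more. The highest shares were found in chromosome 11 from 0 to 5 Mb (17 of 62 shared regions, 27.4%, 16 of them the run), chromosome 17 from 55 to 60 Mb (9 of 50, 18.0%) and chromosome 12 from 105 to 110 Mb (7 of 46, 15.2%).

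Chromosomes differed in the share of their shared regions that were members. Chromosome 11 led with 111 of 1572 (7.06%), or 95 of 1556 (6.11%) outside the run. Chromosome 12 followed with 54 of 926 (5.83%) and chromosome 17 with 50 of 957 (5.22%). At the other end were chromosome X with 4 of 513 (0.780%), chromosome 9 with 17 of 1023 (1.66%) and chromosome 14 with 12 of 682 (1.76%). The density of the remaining shared regions went the same way at both ends. Their median untreated density was 32.9 on chromosome 11, 33.4 on chromosome 12 and 32.4 on chromosome 17, against 21.9 on chromosome X, 26.3 on chromosome 9 and 23.5 on chromosome 14. Over the 20 chromosomes the share of members and this median had a Spearman rho of 0.94 and a Pearson r of 0.90, and without chromosomes X and 11 a rho of 0.92 (18 chromosomes). Both measures come from the same libraries, so this is a description. Chromosome copy number in this line was not tested.

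**Figure D5:**
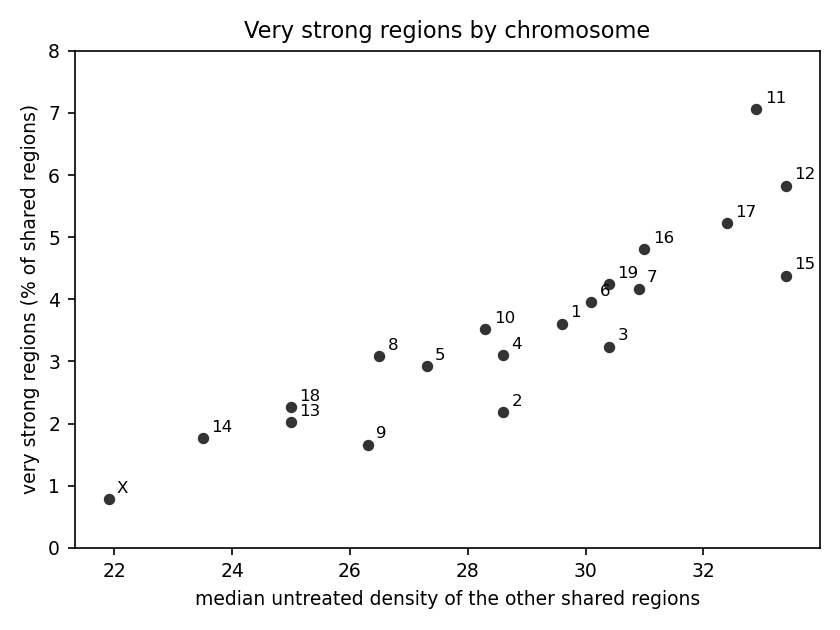
Share of the shared regions that are very strong (y, %) against the median untreated density of the other shared regions (x, deposited scale), 1 point per chromosome with its name. Chromosome X, at 0.780% and 21.9, and chromosome 11, at 7.06% and 32.9, have the lowest and highest shares.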

How the data were processed

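DNase-seq region lists of 4 libraries were used, 1 per condition. Per the submitters' processing notes the build is mm9 and CASAVA 1.8 was used; no source used here names the aligner or the region caller. Per the file headers the columns MaxD and AveD hold maximum and average tag densities, signal values the authors deposited after scaling each library to a total that is not stated. All maximum densities (100.0%) were whole multiples, within 0.02 tags, of a step of 0.255 (untreated), 0.245 (Dex), 0.200 (E2) or 0.227 (Dex+E2), read as 1 tag. The deposited Z score and p-value of a region refer to its own library and were not used. Positions are printed as deposited; whether they count from 0 or 1 is not stated.

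Members and lists were chosen with earlier results of these data known. A merged region took the highest density of its listed regions in each library. Ratios were computed for all 20687 shared regions and are given as deposited and relative to library medians. Named regions are the 10 members with the highest lowest density, the 5 smallest and 5 largest ranges, the 5 widest and the 3 nearest to each side of the limit; others were picked after their values were seen, as were the level group, the runs and the windows. Functions were tested on simulated lists. Gene lists and sequence motifs planned for the members were not analysed here. Software was SciPy 1.17.1, pandas 2.3.3, Matplotlib 3.10.9 and NumPy 2.4.6 under Python 3.11.15.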

Additional observations from a re-analysis of the deposited data

How the results depend on the processing

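The number of members depended on the limit and its scale. It was 1485 with a limit of 30, 219 with 60, 1706 when the limit was not asked of E2, and 5042 when densities were first scaled to equal library medians, which by construction lowers the limit to 1.33 medians everywhere. Other definitions gave 547 to 779. Of 79 alternative values 56 were called the same as the main one and 23 were called moved. Counts were called the same within a fixed fold of the main count, and medians and percentages within an interval taken over the regions. Regions of single libraries are not replicates, and several settings keep nearly all members. These calls therefore describe the size of a shift and measure no reproducibility. No median log2 ratio changed sign, while counts, widths and percentages cannot change sign. Relative to library medians, the median log2 ratios to untreated were -0.13 (Dex), -0.11 (E2) and -0.04 (Dex+E2), and those of Dex+E2 to Dex and to E2 were 0.05 and 0.03. With the average density in place of the maximum, the same 5 were -1.19, -1.56, -0.95, 0.22 and 0.60. A limit of 60 gave -1.65 for E2 over untreated, 0.08 for Dex+E2 over Dex, 0.58 for Dex+E2 over E2 and a median width of 1496 bp. Members with 1 region in every list gave -1.19 for Dex over untreated, 0.14 for Dex+E2 over Dex and a width of 1332 bp. Joining regions within 150 bp gave a width of 1492 bp and 74.9% with 1 region in every list. The planned distances to transcription starts and sequence windows were not run. No paired analysis was possible because each group has 1 library and no test was made. With 157 to 201 tags at the limit, membership near it is within counting error.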
